A study of Mus musculus with 12 samples.

Results

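The genes described here are 10 parts of the machinery that carries a cell from G1 into S phase: the D-type cyclins Ccnd1, Ccnd2 and Ccnd3, the E-type cyclins Ccne1 and Ccne2, the kinases Cdk2, Cdk4 and Cdk6, the ubiquitin ligase subunit Skp2, and the pocket protein Rb1. They were taken by symbol from the deposited counts table, which lists 53735 genes. All 10 were found, and all 10 were among the 18236 genes that passed the low-count filter and were tested. The series measured total RNA by sequencing in live mouse mammary cells sorted by the surface markers CD24 and CD49f into luminal and basal fractions. There were 3 libraries in each of 4 groups: MMTVRANK luminal, WT luminal, MMTVRANK basal and WT basal cells. MMTVRANK names a transgene in which the mouse mammary tumour virus promoter, active in mammary epithelium, drives the receptor RANK, whose gene is Tnfrsf11a, and WT is wild type. Strain, age, the number of animals and whether replicates were separate animals are not given in the sources used here, so p-values measure the spread between these libraries.

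In G1, mitogen signals raise D-type cyclins, which bind Cdk4 or Cdk6 and begin to phosphorylate the retinoblastoma protein encoded by Rb1. Phosphorylation frees E2F transcription factors, whose targets include the E-type cyclins, and cyclin E with Cdk2 then completes the step. Skp2 is the substrate-recognising subunit of an SCF ubiquitin ligase that marks the CDK inhibitor p27, product of Cdkn1b, for destruction. Cyclin D1 is required for the growth of the mammary lobules in pregnancy in the mouse, and RANK signalling lies upstream of it there.

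Libraries held 12459547 to 15069578 counts assigned to genes. Luminal and basal marker sums lay with the sample titles in all 12 libraries: 9 basal markers summed to 378 to 720 CPM (counts scaled to the size of the library) in MMTVRANK luminal and 279 to 551 CPM in WT luminal libraries, against 26795 to 30694 CPM in MMTVRANK basal and 22659 to 25378 CPM in WT basal libraries. The transgene's gene did not follow the genotype labels in every library. Tnfrsf11a stood at 319, 155 and 238 CPM in MMTVRANK luminal libraries 1, 2 and 3, against 6.35, 90.6 and 9.89 CPM in WT luminal libraries. In basal cells it stood at 414, 129 and 218 CPM with MMTVRANK, against 73.5, 158 and 65.2 CPM in WT. Thus the libraries labelled WT replicate 2 carried Tnfrsf11a well above the other WT libraries of their fraction, and in basal cells above MMTVRANK replicate 2. The cell subtype field of the same pair also disagrees with its titles. MMTVRANK luminal replicate 3 stood apart in another way, with a sum of 1100 CPM over 10 leukocyte markers and none of them at 0. The same sum was 125 and 158 CPM in MMTVRANK luminal replicates 1 and 2, and 130 to 142 CPM in WT luminal cells. In MMTVRANK basal replicate 3 it was 225 CPM, beside 24.7 and 30.1 CPM in its fellow replicates and 19.6 to 56.4 CPM in WT basal cells. Where leaving out the labelled WT replicate 2 pair or MMTVRANK luminal replicate 3 ended or made a call on one of the 10 genes, both values are given.

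Skp2 was the member that the test called between genotypes, so its promoters are shown first. RefSeq gives 2 start sites for Skp2 in GRCm38.p6, the build of the deposited table, both on the minus strand of chromosome 15. The upstream window, chr15:9155376-9155675, runs from 250 bases before the start to 50 after it, and the downstream window, chr15:9140405-9140704, lies inside the annotated gene. Capitals mark a CHR word, the hexamer TTTGAA or TTCGAA searched on both strands, a letter pattern found in promoters of many late cell-cycle genes. The upstream Skp2 window holds 2 of them, and the downstream window holds none.
Skp2, upstream start: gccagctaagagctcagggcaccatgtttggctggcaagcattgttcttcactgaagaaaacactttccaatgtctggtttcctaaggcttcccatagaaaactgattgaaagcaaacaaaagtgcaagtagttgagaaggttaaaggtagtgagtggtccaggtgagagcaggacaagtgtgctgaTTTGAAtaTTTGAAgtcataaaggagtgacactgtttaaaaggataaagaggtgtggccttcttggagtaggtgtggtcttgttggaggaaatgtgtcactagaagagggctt
Skp2, downstream start: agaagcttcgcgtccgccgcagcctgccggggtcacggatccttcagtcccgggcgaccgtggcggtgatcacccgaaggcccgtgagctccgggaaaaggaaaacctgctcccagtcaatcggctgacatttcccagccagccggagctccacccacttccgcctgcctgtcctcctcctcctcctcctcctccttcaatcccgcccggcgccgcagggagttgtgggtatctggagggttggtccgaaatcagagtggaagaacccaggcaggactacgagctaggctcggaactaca
Among 32817 mouse promoter windows of the same length, 19.2% hold at least 1 such word. Neither Skp2 window holds an E2F word (TTTCCCGC, TTTCGCGC, TTTGCCGC or TTTGGCGC, both strands), a pattern present in 2.26% of windows. A match describes letters only, and gene-level counts do not say which start was used.

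In luminal cells Skp2 was higher with MMTVRANK than in WT. It had 8.29, 8.81 and 14.2 CPM in MMTVRANK luminal libraries 1, 2 and 3, from 122, 138 and 243 counts. It had 1.2, 2.62 and 1.14 CPM in WT luminal libraries, from 16, 37 and 18 counts. The lowest MMTVRANK library lay above the highest WT library, which was the replicate 2 library with high Tnfrsf11a. Skp2 rose by 2.65 ± 0.452 on the log2 scale (log2 fold change ± SE, n = 3 each), which is 6.3-fold (edgeR quasi-likelihood test, Benjamini-Hochberg adjusted p = 0.043 over all 18236 genes). It was the only one of the 10 members called, in a comparison that called 0.252% of all genes (46 genes) and 0.0932% as higher (17 genes). The fit with replicate number as a block called 103 genes in place of 46 and kept Skp2, at 2.69 and an adjusted p of 0.0427.

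The size of the Skp2 difference was steadier than its call. Over 20 other settings its log2 fold change ran from 2.33 to 3.15, and 9 of them called it, with adjusted p from 1.86e-06 to 0.129. Without both WT replicate 2 libraries it was 3.15 (adjusted p = 0.0291), and without these and MMTVRANK luminal replicate 3 it was 2.81 (adjusted p = 0.0585, a setting chosen after seeing the data). The call ended without MMTVRANK luminal replicate 2 (adjusted p = 0.0535) or 3 (0.121), without WT luminal replicate 1 (0.128) or 3 (0.129), without WT basal replicate 1 (0.0577), and without MMTVRANK basal replicate 1 (0.0777), 2 (0.0744) or 3 (0.0811). It also ended with limma-voom (0.0631) and when the fit held only the 6 luminal libraries (0.098).

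Across the groups Skp2 was lowest in WT luminal cells. MMTVRANK basal libraries had 12.2, 7.74 and 11.5 CPM, and WT basal libraries had 8.03, 7.55 and 4.18 CPM. In WT, luminal cells thus had less Skp2 than basal cells, with no overlap, and Skp2 fell by 1.99 ± 0.445 on the log2 scale in luminal relative to basal cells (edgeR quasi-likelihood adjusted p = 0.0038). This call held in 21 of 21 other settings. With MMTVRANK the fractions overlapped, at -0.01 ± 0.417 (luminal over basal, adjusted p = 0.992). In basal cells the genotype difference was 0.67 ± 0.421 (adjusted p = 0.977), with overlapping groups. The luminal genotype effect exceeded the basal one by 1.98 ± 0.605 on the log2 scale, which did not pass (unadjusted p = 0.00632 by the quasi-likelihood test in edgeR, adjusted p = 0.475 over all genes).

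**Figure D1:**
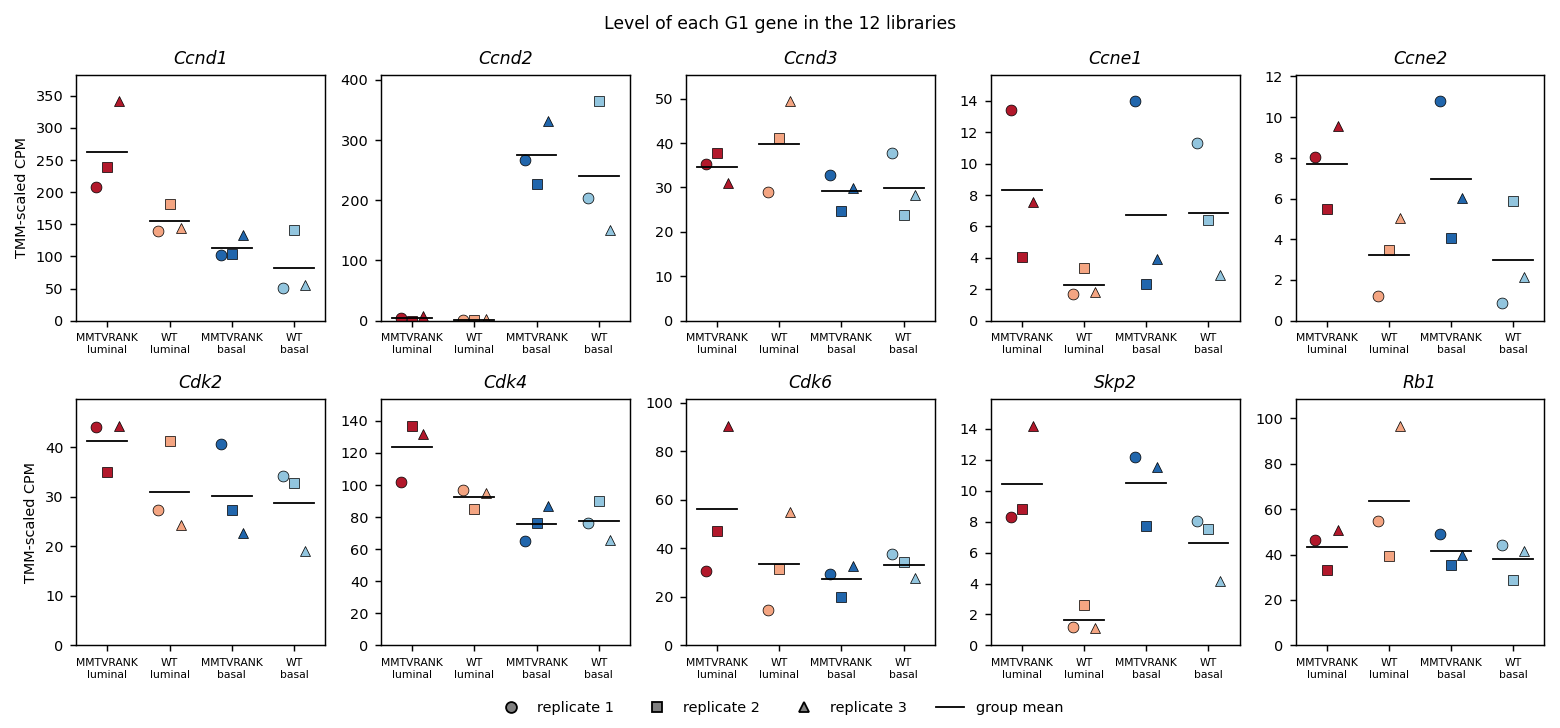
TMM-scaled CPM (y axis, from 0) of each of the 10 genes in the 12 libraries, by group (x axis), with a symbol for each replicate number and a bar at the group mean. The 3 WT luminal libraries of Skp2 lie at 1.14 to 2.62 CPM, below the other 9, and Ccnd2 is near 0 in all 6 luminal libraries.

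Proliferation markers were also higher in MMTVRANK luminal than in WT luminal libraries. Mki67, a marker of cycling cells, stood at 909, 401 and 877 CPM in MMTVRANK luminal libraries, against 72.4, 161 and 30.1 CPM in WT luminal libraries. The Mki67 difference of 3.05 ± 0.968 on the log2 scale did not pass (edgeR adjusted p = 0.212). Within MMTVRANK luminal libraries Mki67 was highest in replicate 1 and Skp2 in replicate 3. The sum of 6 proliferation markers was 600 to 1437 CPM in MMTVRANK luminal and 48.2 to 256 CPM in WT luminal libraries, with none of the 6 at 0. In basal cells that sum ran from 341 to 771 CPM with MMTVRANK and from 24.8 to 768 CPM in WT, where the high library was the labelled replicate 2. Sums of luminal markers were lower with MMTVRANK in the luminal fraction, for pan-luminal as well as subtype markers, and were not tested. Pan-luminal markers summed to 7096 to 11240 CPM with MMTVRANK and 12140 to 17615 CPM in WT. For both subtype lists the ranges of the groups nearly met. Hormone-sensing markers summed to 1751 to 5361 CPM with MMTVRANK and 5642 to 10275 CPM in WT, and luminal progenitor markers to 360 to 681 CPM with MMTVRANK and 698 to 1486 CPM in WT. The part of cycling cells, of luminal subtypes and of leukocytes in the member values was not tested. In bulk samples a change in how many cells express a gene and a change in RNA per cell cannot be told apart.

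Among the D-type cyclins, Ccnd1 was the main form in luminal cells, and in basal cells Ccnd2 exceeded Ccnd1 per kb of exon in each of the 6 libraries. The exon length used sums all annotated exons of a gene, 4709 bases for Ccnd1, 9409 for Ccnd2 and 8775 for Ccnd3. It is not the length of the transcript in use, so shares between genes depend on the annotation. Scaled by exon length, Ccnd1 made up 92.4 ± 1.86% of the summed D-cyclin level in MMTVRANK luminal and 87.5 ± 3.04% in WT luminal libraries (SD, n = 3 each). It made up 42.5 ± 2.33% in MMTVRANK basal and 36.4 ± 6.33% in WT basal libraries. Ccnd2 took 51.6 ± 1.9% in MMTVRANK basal and 54.9 ± 3.63% in WT basal libraries, against 0.747 ± 0.626% and 0.426 ± 0.249% in MMTVRANK luminal and WT luminal libraries. The summed D-cyclin level was 60.3 ± 14.8 CPM per kb in MMTVRANK luminal, 37.7 ± 5.09 in WT luminal, 56.5 ± 9.37 in MMTVRANK basal and 46.4 ± 21.9 in WT basal cells. In luminal cells every MMTVRANK library had a higher sum (48.7 to 77) than every WT library (33.2 to 43.2), and the basal groups overlapped.

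**Figure D2:**
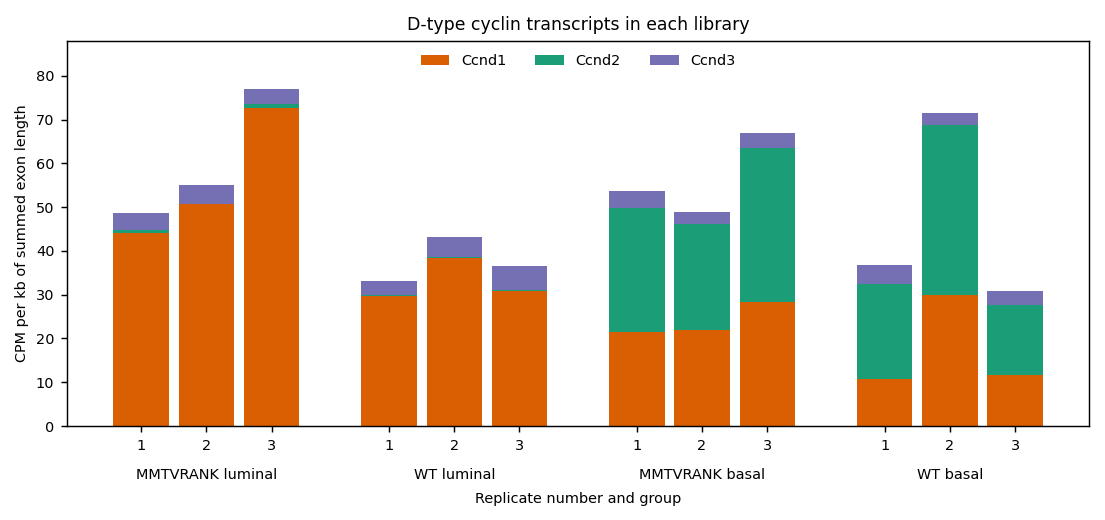
Level of the D-type cyclin transcripts in each library as CPM per kb of summed exon length (y axis, from 0), stacked by gene, with replicate number and group on the x axis. Ccnd1 fills 84 to 94.3% of each luminal bar, while Ccnd2 fills 49.4 to 58.9% of each basal bar.

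Ccnd1, the cyclin that mammary growth factors induce, was highest in MMTVRANK luminal cells. It had 208, 239 and 342 CPM in MMTVRANK luminal libraries 1, 2 and 3, against 140, 181 and 145 CPM in WT luminal libraries. The groups did not overlap, but the difference of 0.76 ± 0.345 on the log2 scale did not pass (edgeR adjusted p = 0.413), and it was 0.49 without MMTVRANK luminal replicate 3, where Ccnd1 and leukocyte markers both stood highest. Basal libraries had 102, 103 and 134 CPM with MMTVRANK and 51.2, 141 and 55.1 CPM in WT. The WT basal library labelled replicate 2 was the highest of the 6, and the genotype difference was 0.45 ± 0.345 with it (adjusted p = 0.998) and 1.09 ± 0.233 without it (adjusted p = 0.277), not called in either case. That library alone made the basal groups overlap, so their separation without it follows from the choice of library. With all 6 basal libraries 11.1% of all genes had groups that did not overlap. The share without that library was not computed.

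Ccnd1 was also higher in luminal than in basal cells. With MMTVRANK it rose by 1.22 ± 0.348 on the log2 scale (luminal over basal, edgeR adjusted p = 0.0177), with no overlap. The call ended when MMTVRANK basal replicate 1 (adjusted p = 0.066), MMTVRANK basal replicate 2 (0.0667) or MMTVRANK luminal replicate 3 (0.0604) was left out, and held in 18 of 21 other settings. In WT the difference was 0.91 ± 0.346 (adjusted p = 0.0563), where WT basal replicate 2 overlapped the luminal libraries. Without both WT replicate 2 libraries it was 1.43 ± 0.248 (adjusted p = 0.00211), and without MMTVRANK luminal replicate 3, a library of neither group, it was 0.92 (adjusted p = 0.0482). With replicate number as a block it passed too, at 0.98 (adjusted p = 0.032), and with the block within genotype at 1.07 (adjusted p = 0.00498). About 23.4% of the Ccnd1 exon bases lie under exons of Oraov1 on the opposite strand, and the authors' counting used no strand option, so reads there cannot be told apart.

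Ccnd2, a D-type cyclin with its own tissue pattern, was a transcript of the basal fraction. MMTVRANK basal libraries had 267, 227 and 331 CPM and WT basal libraries had 204, 365 and 150 CPM. MMTVRANK luminal libraries had 5.16, 0.128 and 7.89 CPM, from 76, 2 and 135 counts, and WT luminal libraries had 1.72, 0.566 and 2.03 CPM, from 23, 8 and 32 counts. All 6 luminal libraries lay far below all 6 basal libraries. Ccnd2 fell by 5.96 ± 0.886 on the log2 scale in MMTVRANK luminal relative to MMTVRANK basal cells (edgeR adjusted p = 0.000409), and fell by 7.37 ± 0.969 in WT luminal relative to WT basal cells (adjusted p = 0.000164). Both calls held in 21 of 21 other settings. The genotype difference was 1.6 ± 0.863 in luminal cells (adjusted p = 0.533) and 0.2 ± 0.703 in basal cells (adjusted p = 1), with overlap in both. Without MMTVRANK luminal replicate 3 the luminal value was 0.81.

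Basal marker transcripts were also present in the luminal libraries at a low level. Relative to the basal mean of the same genotype, Ccnd2 stood at 1.88, 0.0464 and 2.87% in MMTVRANK luminal libraries and 0.716, 0.236 and 0.846% in WT luminal libraries. The 9 basal markers stood at 1.33, 1.56 and 2.54% in MMTVRANK luminal and 1.18, 2.32 and 2.04% in WT luminal libraries on the same scale. Single markers differed in this: in MMTVRANK luminal libraries 1, 2 and 3 Krt5 stood at 0.65, 0.0979 and 0.707% and Acta2 at 0.204, 0.0925 and 0.642%, both lowest in replicate 2 as Ccnd2 was, while Krt14 stood at 0.444, 1.03 and 3.01%. The part of basal cells or of leukocytes in the luminal Ccnd2 level was not tested. Fibroblast markers summed to 496 to 656 CPM in MMTVRANK basal and 269 to 2767 CPM in WT basal libraries, highest in WT basal replicate 1. They summed to 77 to 233 CPM in MMTVRANK luminal and 37.4 to 136 CPM in WT luminal libraries. The part of fibroblasts in the basal Ccnd2 level was not tested.

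Ccnd3, the most evenly expressed D-type cyclin here, passed no test between genotypes or fractions. It had 35.3, 37.8 and 31 CPM in MMTVRANK luminal and 28.9, 41.1 and 49.5 CPM in WT luminal libraries, and 32.8, 24.6 and 30 CPM in MMTVRANK basal and 37.7, 23.7 and 28.4 CPM in WT basal libraries. All groups overlapped. Its largest difference was luminal over basal in WT, at 0.41 on the log2 scale and not called, and the genotype values were -0.2 ± 0.231 in luminal and -0.04 ± 0.233 in basal cells.

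The E-type cyclins, which activate Cdk2 at the G1/S boundary, were both higher in each MMTVRANK luminal library than in any WT luminal library, but neither passed the test. Ccne1 had 13.4, 4.08 and 7.54 CPM in MMTVRANK luminal libraries, against 1.72, 3.33 and 1.84 CPM in WT luminal libraries, a difference of 1.86 ± 0.719 on the log2 scale (edgeR adjusted p = 0.307). Ccne2 had 8.02, 5.49 and 9.59 CPM in MMTVRANK luminal libraries, against 1.2, 3.47 and 5.07 CPM in WT luminal libraries, a difference of 1.24 ± 0.686 (adjusted p = 0.54). For both genes the nearest libraries of the 2 groups were less than 1 CPM apart.

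In basal cells both E cyclins overlapped between genotypes. Ccne1 had 14, 2.36 and 3.91 CPM in MMTVRANK basal libraries and 11.3, 6.4 and 2.9 CPM in WT basal libraries, where replicate 1 was the highest of each group. Ccne2 had 10.8, 4.04 and 6.02 CPM with MMTVRANK and 0.848, 5.89 and 2.14 CPM in WT, where the labelled replicate 2 was again the highest. The basal Ccne2 difference was 1.23 ± 0.69 (adjusted p = 0.963) and became 2.23 ± 0.719 without WT basal replicate 2 (adjusted p = 0.501). About 17.4% of the Ccne2 exon bases lie under the opposite-strand gene Ints8. Over the 12 libraries Ints8 had 6240 counts. Ccne2 had 368 counts in MMTVRANK luminal, 145 in WT luminal, 268 in MMTVRANK basal and 118 in WT basal cells. The part of Ints8 reads in the Ccne2 values was not tested.

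Cdk4 is a catalytic partner of the D cyclins, and its RefSeq promoter window is shown because it holds 4 copies of the E-box word CACGTG, which reads the same on both strands and is marked in capitals.
Cdk4: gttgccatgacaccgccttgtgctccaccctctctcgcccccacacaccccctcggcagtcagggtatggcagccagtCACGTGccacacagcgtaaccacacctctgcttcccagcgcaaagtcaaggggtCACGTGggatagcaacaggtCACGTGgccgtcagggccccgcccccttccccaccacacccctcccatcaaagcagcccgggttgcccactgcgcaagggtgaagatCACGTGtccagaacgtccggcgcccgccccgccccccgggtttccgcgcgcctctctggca
The window is chr10:127063285-127063584 on the plus strand of GRCm38.p6, again 250 bases before the start to 50 after it. At least 1 CACGTG is present in 7.15% of mouse promoter windows. RefSeq windows were matched for 6 of the 10 members, and of these Cdk6 also holds 1 CACGTG, while Cdk2 is the one with an E2F word.

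Cdk4 had 102, 137 and 132 CPM in MMTVRANK luminal libraries, against 97.1, 85.3 and 95.1 CPM in WT luminal libraries. MMTVRANK basal libraries had 64.8, 76.4 and 86.8 CPM, and WT basal libraries had 76.3, 89.9 and 66 CPM. Every MMTVRANK luminal library thus lay above all 9 others. Cdk4 rose by 0.7 ± 0.17 on the log2 scale, 1.63-fold, in MMTVRANK luminal relative to MMTVRANK basal cells (edgeR adjusted p = 0.00697), a call that held in 21 of 21 other settings. The luminal difference between genotypes was 0.42 ± 0.169 (adjusted p = 0.339), and in basal cells it was -0.03 ± 0.17 (adjusted p = 1). In WT, luminal over basal was 0.26 ± 0.17 (adjusted p = 0.263). Exons of the opposite-strand gene Tspan31 cover 19.7% of the Cdk4 exon bases.

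Cdk6, the other D-cyclin kinase, varied widely within each luminal group. It had 30.5, 47.2 and 90.6 CPM in MMTVRANK luminal and 14.6, 31.5 and 55.2 CPM in WT luminal libraries, with replicate 3 highest in both. It had 29.6, 20 and 32.8 CPM in MMTVRANK basal and 37.5, 34.2 and 27.9 CPM in WT basal libraries. The luminal genotype difference was 0.73 ± 0.46 (edgeR adjusted p = 0.62) and 0.17 ± 0.422 without MMTVRANK luminal replicate 3, the library with the high leukocyte sum. The luminal over basal value with MMTVRANK, 1.03 ± 0.463 (adjusted p = 0.113), was 0.51 ± 0.421 without it. It was called in 1 of 21 other settings, with no filter on low counts (1.04, adjusted p = 0.000826).

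Cdk2, the kinase partner of cyclin E, had 44.2, 35.1 and 44.4 CPM in MMTVRANK luminal libraries, against 27.4, 41.3 and 24.3 CPM in WT luminal libraries. The labelled WT replicate 2 library overlapped the MMTVRANK range. The luminal genotype difference was 0.41 ± 0.286 (edgeR adjusted p = 0.678), and Cdk2 overlapped between groups in each of the comparisons. Basal libraries ran from 22.8 to 40.6 CPM with MMTVRANK and from 19.1 to 34.3 CPM in WT.

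Rb1, the pocket protein that the cyclin D and cyclin E kinases phosphorylate, was one of the members with a negative genotype value in luminal cells. It had 46.2, 33.4 and 50.8 CPM in MMTVRANK luminal libraries, against 54.8, 39.5 and 96.7 CPM in WT luminal libraries, which overlap. The difference of -0.55 ± 0.301 on the log2 scale did not pass (edgeR adjusted p = 0.535), and it was -0.17 ± 0.261 without WT luminal replicate 3, the highest library (adjusted p = 0.911). Fitted with replicate number as a block, the luminal Rb1 difference was -0.51 ± 0.213 (edgeR unadjusted p = 0.0364, adjusted p = 0.331), not called. That fit also blocks the basal libraries, and the meaning of the replicate numbers is not established, so it is not a paired test. Basal libraries ran from 35.4 to 49.1 CPM with MMTVRANK and from 28.7 to 44.1 CPM in WT. In WT, luminal over basal was 0.74 ± 0.302 (adjusted p = 0.0723), which passed with replicate number as a block (0.69, adjusted p = 0.0241) and with the block within genotype (0.66, adjusted p = 0.0328), with no filter on low counts (adjusted p = 0.0143) and without WT luminal replicate 2 (1.0, adjusted p = 0.0201). Opposite-strand exons of Rcbtb2 and Lpar6 cover 8.11% and 6.78% of the Rb1 exon bases.

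**Figure D3:**
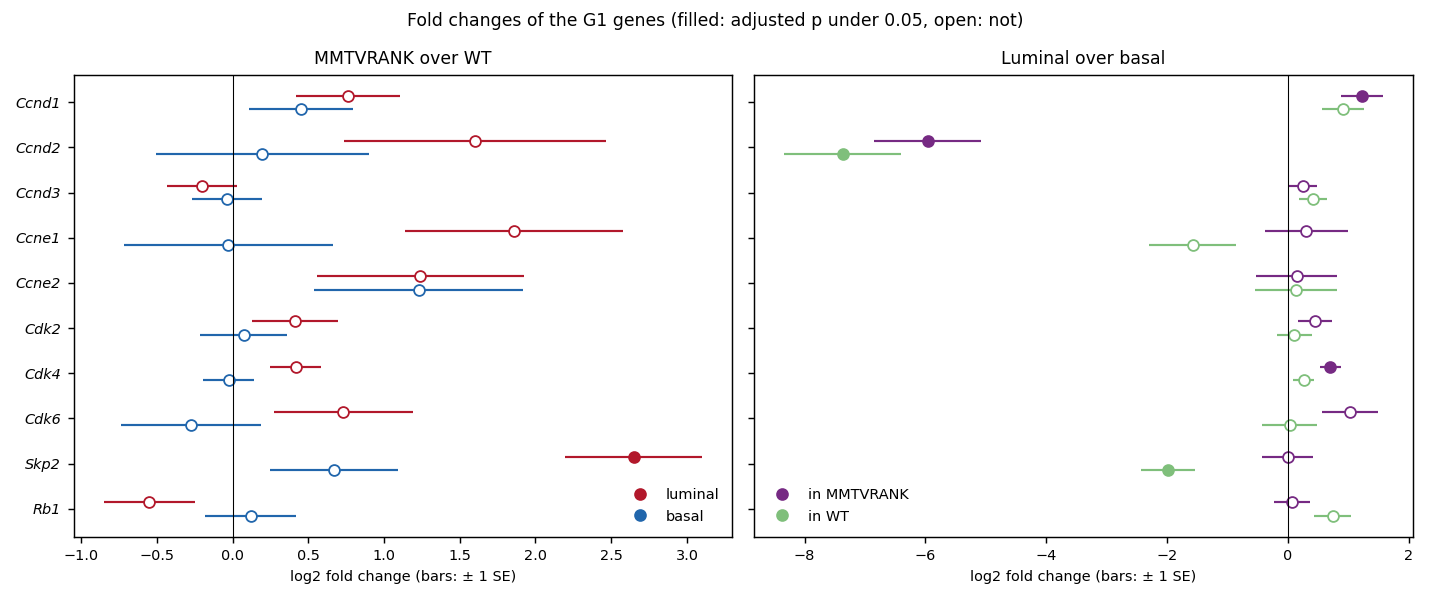
Log2 fold change ± 1 SE (x axis) of each gene (y axis) for MMTVRANK over WT in luminal and basal cells (left) and for luminal over basal in MMTVRANK and WT cells (right), filled where the edgeR adjusted p is under 0.05. Filled points are Skp2 in luminal cells on the left, and on the right Ccnd2 in both genotypes, Ccnd1 and Cdk4 with MMTVRANK, and Skp2 in WT.

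Counted together, 8 of the 10 members had a positive genotype value in luminal cells, where 52.8% of all genes did, and their median log2 fold change was 0.75, against 0.03 over all genes. In 5 of 10, Skp2, Ccne1, Ccne2, Ccnd1 and Cdk4, every MMTVRANK luminal library lay above every WT one, where 10.1% of all genes did so. In basal cells 0 of 10 members passed the edgeR test, in a comparison that called 0.00548% of genes, and 0 of 10 had an unadjusted p under 0.05, where 5.41% of all genes did. DESeq2 and limma-voom also called 0 there, the adjusted p ran from 0.963 to 1, and no member's basal groups separated, where 11.1% of all genes did. Luminal and basal cells differed at many genes. That comparison called 2 of 10 members in WT, against 38.1% of all genes. With replicate number as a block it called 4 of 10 in WT, against 7332 of 18236 genes. It called 3 of 10 with MMTVRANK, against 33.2% of all genes. The test of whether the genotype effect differed between fractions called 0 of 10 members and 0.00548% of all genes, with 1 of 10 members and 7.73% of genes at an unadjusted p under 0.05, and 0 of 10 by DESeq2 and limma-voom. The comparisons share libraries, so their values are not independent.

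The order of levels per kb of exon was led by the same genes in both luminal groups. Any such order depends on the summed length of all annotated exons, from 2662 bases for Ccne1 to 13989 for Cdk6. Lengths of the transcripts in use were not measured. Ccnd1 averaged 55.9 ± 14.9 CPM per kb in MMTVRANK luminal and 33 ± 4.78 in WT luminal cells (SD, n = 3 each). Cdk4 followed, at 38 ± 5.73 in MMTVRANK luminal and 28.5 ± 1.94 in WT luminal cells. Ccnd1 exceeded Cdk4 in every library comparison with MMTVRANK, while in WT luminal cells their ranges overlapped. Rb1 came next in both, at 7.23 ± 1.49 and 10.6 ± 4.92 CPM per kb in MMTVRANK luminal and WT luminal cells, and its range overlapped that of Cdk2 at 6.63 ± 0.855 and 4.98 ± 1.45. Ccnd2 was last, at 0.467 ± 0.419 and 0.153 ± 0.0819, and in WT luminal cells its range overlapped that of Skp2 at 0.21 ± 0.106.

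In basal cells Ccnd2, Ccnd1 and Cdk4 came first, with ranges over libraries that overlapped, although within each of the 6 libraries Ccnd2 exceeded Ccnd1. They averaged 29.2 ± 5.57, 23.9 ± 3.82 and 23.4 ± 3.39 CPM per kb with MMTVRANK, and 25.5 ± 11.9, 17.5 ± 10.8 and 23.8 ± 3.69 in WT. Skp2 was last in both, at 1.33 ± 0.305 with MMTVRANK and 0.836 ± 0.266 in WT, and overlapped the gene above it. Below Cdk4 or Ccnd1, the ranges of neighbours in the order overlapped in all 4 groups, with the exceptions of Skp2 over Ccnd2 in MMTVRANK luminal cells, Ccne1 over Skp2 in WT luminal cells and Cdk6 over Ccne2 in WT basal cells.

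E2F targets, the genes that the cyclin and Rb1 step releases, were described from a list of 18. In luminal cells Pola1 and Tyms rose with MMTVRANK, 2 of 18, where 0.0932% of all genes were called higher. All 18 values were positive, where 52.8% of all genes were, and their median was 1.85 on the log2 scale. Pola1, a subunit of the primase-polymerase that starts DNA strands, had 67.1, 38.5 and 67.2 CPM in MMTVRANK luminal and 15.7, 16.6 and 16.7 CPM in WT luminal libraries (1.82 ± 0.307, edgeR adjusted p = 0.043). Tyms, which makes thymidylate, had 33, 21.1 and 28.1 CPM in MMTVRANK luminal and 6.8, 8.5 and 5.64 CPM in WT luminal libraries (1.97 ± 0.343, adjusted p = 0.0458). Pola1 and Tyms were each called in 9 of 20 other settings. DESeq2 called 12 of the 18, where it called 800 of 18236 genes in all. Limma-voom called Tyms alone, with 29 genes called in all. In 16 of 18 every MMTVRANK luminal library lay above every WT one, where 10.1% of all genes did so. In basal cells 0 of 18 were called by edgeR, DESeq2 or limma-voom. None had an unadjusted p under 0.05, where 5.41% of all genes did, and the median was 0.28, or 0.91 without WT basal replicate 2. In WT, 5 of 18 fell in luminal relative to basal cells, where 38.1% of all genes were called in either direction: the replication clamp Pcna, the origin and helicase genes Orc1 and Mcm4, the nucleotide reductase Rrm1, and Pola1. Without both WT replicate 2 libraries 2 of them, Orc1 and Pola1, were called, where 5322 of 19030 genes were. With MMTVRANK, 1 of 18, the thymidine kinase gene Tk1, rose in luminal relative to basal cells (1.51 ± 0.41, adjusted p = 0.0131), where 33.2% of all genes were called. DESeq2 and limma-voom each called 4 there, with 6854 and 6334 of 18236 genes called in all. Without both WT replicate 2 libraries edgeR called 5, with 5832 of 19030 genes called in all.

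The S and M phase cyclins and their kinases, Ccna2, Ccnb1, Ccnb2, Cdk1, Cdc25b, Cdc25c and Ccnf, had the highest list median in luminal cells, 2.52 on the log2 scale. None of the 7 passed the edgeR test between genotypes there. An unadjusted p under 0.05 was reached by 5 of 7, where 2183 of 18236 genes reached it. All 7 were positive, where 52.8% of all genes were. DESeq2 called 4 of the 7, with 800 of 18236 genes called in all, and limma-voom called 0, with 29 in all. Cdc25b, a phosphatase that activates CDKs, had 27.6, 8.61 and 19.2 CPM in MMTVRANK luminal and 5.68, 3.68 and 2.98 CPM in WT luminal libraries (2.17 ± 0.534, adjusted p = 0.109). In basal cells the median was 0.98, or 1.92 without WT basal replicate 2, with 0 of 7 called by edgeR, DESeq2 or limma-voom. There 0 of 7 had an unadjusted p under 0.05, where 5.41% of all genes did. Between fractions 1 of 7, Cdc25b, fell in luminal relative to basal cells in WT (-1.52 ± 0.526, edgeR adjusted p = 0.0381), where 38.1% of all genes were called. That call held in 10 of 21 other settings. With MMTVRANK 0 of 7 passed by edgeR, where 33.2% of all genes did, and 0 by DESeq2. Limma-voom called 2, with 6334 of 18236 genes called in all. By edgeR 1 of 7 had an unadjusted p under 0.05 there, against 7717 of all genes.

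**Figure D4:**
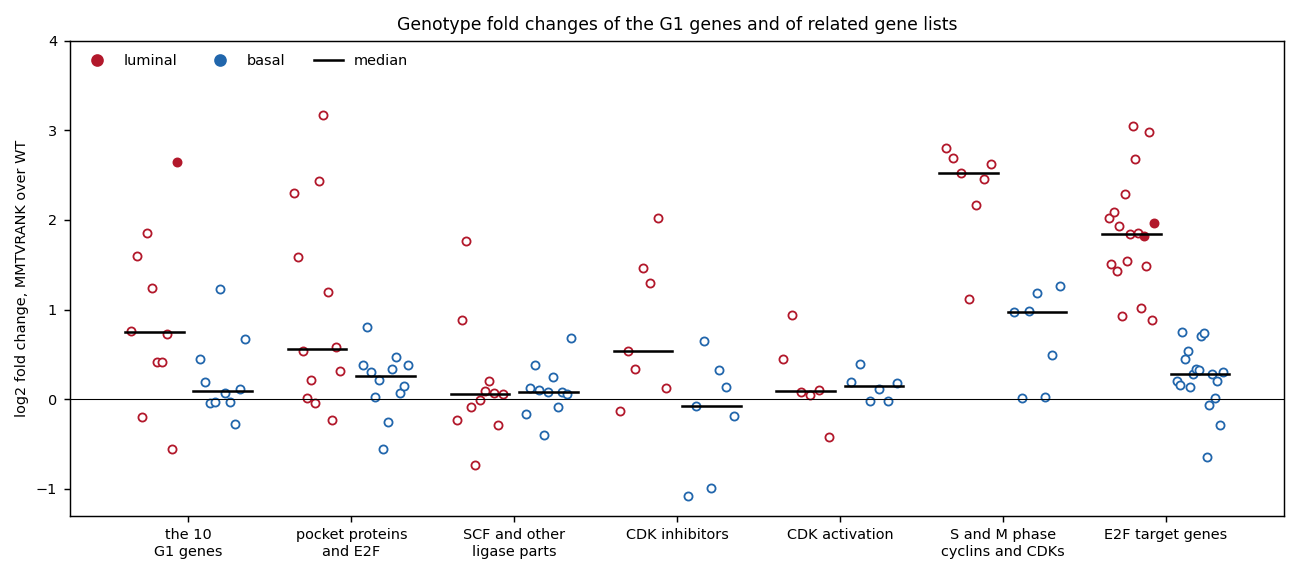
Log2 fold change of MMTVRANK over WT (y axis) for the 10 genes and the members of 6 related lists (x axis) in luminal and basal cells, each point 1 gene, filled where the edgeR adjusted p is under 0.05, with a line at the median. In luminal cells the E2F target and the S and M phase lists have medians of 1.85 and 2.52, and in basal cells of 0.28 and 0.98.

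Of the other pocket proteins and E2F factors, 0 of 12 passed between genotypes in luminal cells, with a list median of 0.56 on the log2 scale, and 0 of 12 in basal cells by edgeR. Without both WT replicate 2 libraries edgeR called 2 in luminal cells, E2f7 and E2f8, with 81 of 19030 genes called in all. An unadjusted p under 0.05 was reached by 5 in luminal and 1 in basal cells, against 2183 and 986 of all 18236 genes. DESeq2 called 3 in luminal cells (E2f1, E2f7 and E2f8) and 0 in basal cells, where it called 800 and 66 of all genes. Limma-voom called 0 in both. E2f8, a repressor of E2F targets, had 24.5, 12.4 and 27.8 CPM in MMTVRANK luminal and 1.57, 3.4 and 2.22 CPM in WT luminal libraries (3.17 ± 0.727, edgeR adjusted p = 0.0999). E2f1, an activating E2F, had 2.3 ± 0.689 (adjusted p = 0.182), and Rbl1, which encodes the pocket protein p107, had 1.2 ± 0.394 (adjusted p = 0.217). In WT, the activator E2f2 rose (a call that held in 9 of 21 other settings) while E2f8, its fellow repressor E2f7 and the E2F dimer partner Tfdp2 fell in luminal relative to basal cells. With MMTVRANK, E2f2 rose and Tfdp2 fell. These are 4 of 12 in WT, where 38.1% of all genes were called, and 2 of 12 with MMTVRANK, where 33.2% were.

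The CDK inhibitors oppose the members, and by edgeR 0 of 7 passed between genotypes in luminal cells (median 0.54) or in basal cells (median -0.07). In each fraction 1 of 7 had an unadjusted p under 0.05, against 2183 of all 18236 genes in luminal and 986 in basal cells. These were Cdkn2c in luminal and Cdkn1a in basal cells. DESeq2 called both, among 800 and 66 genes in all, and limma-voom called neither. Cdkn1b, the target that Skp2 marks, was at 0.54 ± 0.31 in luminal cells (edgeR adjusted p = 0.566). Cdkn2c, an inhibitor of Cdk4 and Cdk6, was at 2.02 ± 0.529 there (adjusted p = 0.131), and Cdkn1a, the inhibitor known as p21, at -1.08 ± 0.187 in basal cells (adjusted p = 0.246). Between fractions, Cdkn2a rose in luminal relative to basal cells in both genotypes, by 5.21 ± 0.886 with MMTVRANK (adjusted p = 0.000662) and 2.76 ± 0.791 in WT (adjusted p = 0.0156). Cdkn2a encodes p16 and ARF. In basal libraries it had only 0.226, 0.0842 and 0.313 CPM with MMTVRANK and 0.154, 0.935 and 0.171 CPM in WT. The size of both differences thus rests on few counts, and the WT call held in 19 of 21 other settings. Cdkn1c, which encodes p57, fell in both genotypes, and Cdkn2c and Cdkn1a fell in WT. With Cdkn2a, these are 4 of 7 in WT, where 38.1% of all genes were called, and 2 of 7 with MMTVRANK, where 33.2% were.

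The ligase list holds Skp2's partners in the SCF complex and related genes, 11 in all. Between fractions 5 of 11 were called in each genotype, where 33.2% of all genes were called with MMTVRANK and 38.1% in WT. Of the 11 genes 0 passed in either genotype comparison by edgeR, DESeq2 or limma-voom. There were 0 in luminal and 1 in basal cells at an unadjusted p under 0.05, against 2183 and 986 of all 18236 genes. Cks1b, the cofactor that Skp2 needs to bind p27, was at 0.89 ± 0.431 in luminal cells (edgeR adjusted p = 0.455). In luminal relative to basal cells Fzr1, which directs the APC/C ligase in G1, rose by 1.24 ± 0.216 with MMTVRANK (adjusted p = 0.000803) and by 0.95 ± 0.215 in WT (adjusted p = 0.00415). The F-box genes Fbxo4 and Fbxo31 and the RING subunit Rbx1 also rose in both genotypes, the SCF adaptor Skp1a rose in WT, and the deubiquitinase Usp28 fell with MMTVRANK. The Fbxo31 call with MMTVRANK (adjusted p = 0.0481) held in 11 of 21 other settings and the Skp1a call in 13 of 21, and both ended without both WT replicate 2 libraries. Among 6 genes that activate or restrain CDKs, 0 passed between genotypes by edgeR. An unadjusted p under 0.05 was found for 2 in luminal and 0 in basal cells, against 2183 and 986 of all genes. DESeq2 called 1, the phosphatase gene Cdc25a, in luminal cells, with 800 genes called in all, and limma-voom called 0. In luminal relative to basal cells the inhibitory kinase Wee1 rose and Cdc25a fell in WT, and Mnat1, part of the CDK-activating kinase, rose with MMTVRANK. These are 2 of 6 in WT, where 38.1% of all genes were called, and 1 of 6 with MMTVRANK, where 33.2% were. Wee1 held in 18 of 21 other settings, Cdc25a in 12 and Mnat1 in 17, and the Wee1 and Cdc25a calls ended without both WT replicate 2 libraries. The lists were chosen with results of these data known, and are given as counts and medians.

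The genes most like each member over the 12 libraries were ranked by Pearson's r on log2 CPM among 11113 genes, as a description in which the luminal and basal split is shared by all points. Skp2 was nearest to Larp7 (r = 0.947), Xrcc2 (0.945) and Lmnb1 (0.934). Ccnd1 was nearest to Proser2 (0.956), and Ccnd2 to Lrrc8c, Dysf and Fstl1 (0.989 each). Ccne1 was nearest to Mybl1 (0.908) and Ccne2 to Ercc6l (0.908). The nearest to Cdk2 was Wdr62 (0.935), to Cdk4 Rnf138 (0.908) and to Cdk6 Pus7 (0.897). Ccnd3 was nearest to Scarna2 (0.917), and Rb1 to Wdr83os (0.884).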

How the data were processed

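Total RNA from sorted cells was made into libraries with a stranded total RNA kit, per the labels' protocols. Per the submitters' processing notes, reads were aligned with STAR 2.6.1b to GRCm38.p6. The deposited raw counts per gene were made by the authors with featureCounts 1.5.2 on GENCODE M17, per the file headers, with each read given to the gene of largest overlap and with neither a strand nor a paired-end option. Replicates were not pooled.

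Groups follow the sample titles. In R 4.3.3, edgeR 4.0.16 kept 18236 genes (filterByExpr, minimum count 10), scaled by TMM and fitted all 12 libraries by quasi-likelihood with 4 group means and robust dispersion. Adjusted p-values are Benjamini-Hochberg over all tested genes, called under 0.05, and each SE was derived from the fold change and its F statistic. CPM use TMM-scaled library sizes, and per-kb levels divide by the summed exon length in the deposited table. The fit was also run on simulated counts that used a common dispersion for all genes. Such counts lack the spread particular to single genes and libraries, so that run does not test the calls given here. No pair of libraries was a duplicate (66 pairs, lowest chi-square per degree of freedom 25.5).

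The members and gene lists were chosen with earlier results of these data known. Named genes are the members, the listed pathway genes called or with the smallest p, and the nearest by Pearson's r. Marker lists cover luminal, basal, leukocyte, fibroblast, endothelial, pericyte, adipocyte and proliferating cells. Fibroblast markers summed to 77 to 233 CPM in MMTVRANK luminal, 37.4 to 136 in WT luminal, 496 to 656 in MMTVRANK basal and 269 to 2767 in WT basal libraries. Pan-luminal markers summed to 7096 to 11240 CPM in MMTVRANK luminal, 12140 to 17615 in WT luminal, 287 to 384 in MMTVRANK basal and 523 to 603 in WT basal libraries. Endothelial markers reached 22.4 CPM in luminal and 242 in basal libraries, adipocyte markers 9.53 and 197, and pericyte markers 247 and 133.

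Replicate numbers were checked as pairs by correlating deviations from group means over 10077 genes. The r was 0.527, 0.124 and 0.393 for luminal genotype pairs, 0.276, 0.168 and 0.344 for WT luminal and basal, and 0.279, 0.143 and 0.198 for MMTVRANK luminal and basal, all over 0.1. It was 0.404, -0.0711 and 0.0911 for basal genotype pairs, which were not read as paired, although the replicate block covers them too. For libraries unlike in both labels it was 0.261, 0.204 and 0.116 (WT luminal with MMTVRANK basal) and 0.12, -0.102 and 0.023 (MMTVRANK luminal with WT basal). An r over 0.1 was thus also found for unlike libraries, so the check cannot say what a replicate number marks. Alternatives were RLE scaling, no filter, DESeq2 1.42.0, limma-voom (limma 3.58.1), replicate blocks, libraries left out and fits on 6 libraries. Promoter windows are RefSeq's for GRCm38.p6.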

Additional observations from a re-analysis of the deposited data

How the results depend on the processing

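Both calls and fold changes depended on single libraries and on the tool. Of the 1020 alternative member values, 924 kept their direction and side of the threshold, 20 passed where the reported value did not, 14 no longer passed and 62 changed sign. The changes of sign concern differences that were not called. Settings are named as in the results, and the cause of these changes was not tested.

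In luminal cells 46 genes were called between genotypes, against 800 with DESeq2, 29 with limma-voom, 1353 with no filter, 7 with 6 libraries, 103 with the replicate block, 81 without both WT libraries numbered 2, and 3 to 93 with 1 library left out. In basal cells 1 gene was called, against 66 with DESeq2, 0 with limma-voom, 349 with no filter, 0 with 6 libraries, 4 without both WT libraries numbered 2, 4 without these and MMTVRANK luminal number 3 (a setting chosen after seeing the data), and 0 to 8 with 1 library left out. For the difference of genotype effects 1 gene was called, against 140 with DESeq2, 0 with limma-voom, 776 with no filter, 0 with either replicate block, 3 without both WT libraries numbered 2, 13 without all 3 of those libraries, and 0 to 7 with 1 library left out.

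Of the members, 1 was called between genotypes in luminal cells, against 0 with limma-voom, 0 with 6 libraries, 0 without all 3 libraries, 4 with no filter (Skp2, Ccnd1, Ccnd2 and Ccne1), and 0 to 1 with 1 library left out. Between fractions in WT 2 were called, against 4 with DESeq2, 5 with no filter and 4 with either replicate block. Of all genes 6940 were called there, against 7823 with DESeq2, 7000 with no filter, 7332 with the replicate block and 7132 with the block within genotype. For the difference of effects, no filter called 1, Ccnd2.

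With both WT libraries numbered 2 left out, these values changed sign: the difference of effects of Ccnd1 (-0.209), Ccnd3 (0.000651) and Ccne2 (-0.938), luminal over basal of Cdk2 in WT (-0.0407), and the basal genotype values of Cdk4 (0.102) and Rb1 (-0.0424). Without these and MMTVRANK luminal number 3, the difference of effects was -0.45 for Ccnd1, -0.17 for Ccnd2, 0.0711 for Ccnd3 and -1.12 for Ccne2. Luminal over basal was then -0.0411 for Ccne2 and -0.0573 for Rb1 with MMTVRANK and -0.0299 for Cdk2 in WT, and the basal genotype value was 0.061 for Cdk4 and -0.0843 for Rb1. The Ccne2 difference of effects, 0.0142, was -0.121 with limma-voom, -0.0121 with no filter, -0.0683 with the replicate block and -0.0758 with the replicate block within genotype. Cdk6 luminal over basal in WT, 0.0247, was -0.0234 with DESeq2, -0.0228 with RLE, -0.142 with limma-voom, -0.167 with the replicate block and -0.155 with the replicate block within genotype. Skp2 luminal over basal with MMTVRANK was 0.00456 with no filter.

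With 1 library left out in turn, basal genotype values ran from -0.0432 to 0.642 for Ccnd2, -0.176 to 0.17 for Ccnd3, -1.13 to 0.546 for Ccne1, -0.194 to 0.249 for Cdk2, -0.127 to 0.102 for Cdk4 and -0.0421 to 0.247 for Rb1. Luminal over basal with MMTVRANK ran from -0.217 to 1.41 for Ccne1, -0.129 to 0.616 for Ccne2, -0.0549 to 0.226 for Rb1 and -0.291 to 0.132 for Skp2. Luminal over basal in WT ran from -0.342 to 1.13 for Ccne2, -0.144 to 0.267 for Cdk2 and -0.521 to 0.392 for Cdk6. The difference of effects ran from -0.333 to 0.551 for Ccnd1, -0.37 to 0.0146 for Ccnd3 and -0.987 to 0.489 for Ccne2. Low counts limit Skp2, Ccne1, Ccne2, luminal Ccnd2 and, of the listed genes, basal Cdkn2a.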
